A study of Mus musculus with 8 samples.

Results

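The oligoadenylate synthetase (OAS) family was followed in RNA-seq libraries of whole inguinal white fat from Fabp4-Ebf2 and wild-type (WT) mice. Its 8 members, Oas1a, Oas1b, Oas1g, Oas1h, Oas2, Oas3, Oasl1 and Oasl2, were taken by gene symbol, with 1 transcript per gene, from a table of 22869 genes. All 8 were present and had enough reads to be tested, among 15002 tested genes. There were 4 Fabp4-Ebf2 libraries, from mice carrying an Ebf2 transgene under a promoter named for Fabp4, a gene of adipocytes that macrophages also express, and 4 WT libraries. Mice of both groups were of mixed background strain, about 6 weeks old and kept at room temperature on normal chow, and lymph nodes had been taken out of the fat. The labels leave unstated whether the libraries are from different animals. The p-values therefore cover the spread between libraries, which may be partly technical. In bulk tissue, more cells of a type and more RNA per cell cannot be told apart.

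OAS enzymes are part of the interferon response. When they meet double-stranded RNA, the active members join ATP into short 2′,5′-linked oligoadenylates, which act as a signal of the antiviral response. Interferons acting on their receptors raise OAS transcription through a complex that includes STAT2 and IRF9 and binds a DNA element of repeated GAAA. In mice the single OAS1 gene of humans is represented by a cluster of duplicated genes, of which Oas1a and Oas1g encode active enzymes.

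Ebf2 was higher in every Fabp4-Ebf2 library than in any WT library. The gene, which encodes a transcription factor of brown and beige adipocytes, had 499, 231, 575 and 447 CPM in Fabp4-Ebf2 fat, against 37.0, 14.9, 30.3 and 29.4 CPM in WT fat. CPM stands for counts of a gene relative to its library's TMM-scaled total. The log2 fold change of Ebf2 was 3.98 with an SE (standard error) of 0.35, and its p, adjusted by Benjamini and Hochberg's method over all tested genes, was 0.00177 in edgeR's quasi-likelihood test, which gave all adjusted p-values named with edgeR. Reads of the transgene and of the endogenous gene are not separated. Depth was 16.9 to 24.7 M reads per library, so 3 reads corresponded to 0.122 to 0.178 CPM, a limit of counting error only. Adipocyte markers, among them Adipoq and Plin1, summed to 15700 to 23040 CPM in Fabp4-Ebf2 libraries and 18640 to 26820 CPM in WT libraries, and 0 of 8 passed the test (unadjusted p under 0.05 in 0 higher and 3 lower, 2 lower with DESeq2, 0 with limma-voom). Over all genes DESeq2 called 365 of 16265 lower, and 2625 of 15002 had an unadjusted p under 0.05 in either direction. In the authors' deposited table the adipocyte markers Lep and Cidec were lower (edgeR FDR 0.00180 and 0.00881).

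All 8 members had a higher mean in Fabp4-Ebf2 fat, and 5 of them passed the test. Oas1a, Oas1g, Oas1h, Oasl1 and Oasl2 were 2.16-fold to 3.62-fold higher, Oas2 and Oas3 were 1.81-fold and 1.79-fold without passing, and Oas1b was 1.31-fold. The 5 calls are 62.5% of the 8 listed members, against 2.80% of all tested genes called higher and 3.42% called in either direction. Oas1c, the 1 tested Oas1 paralog outside this list, had a log2 fold change of -0.11 and was not called. None was lower, against 0.620% of all tested genes, and 0 members were lower by DESeq2, by limma-voom or at an unadjusted p under 0.05. The median log2 fold change of the members was 1.16, against -0.01 over all tested genes. In 6 members every Fabp4-Ebf2 library lay above every WT library, which 7.35% of tested genes did, and in 0 members every one lay below, against 4.07% of tested genes. At an unadjusted p under 0.05 there were 7 members higher, against 10.2% of all tested genes. DESeq2 called 7 members higher, against 5.13% of its tested genes, and limma-voom called 4, against 2.48%.

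The calls lay close to the threshold and changed with the libraries in the fit. With 1 library left out, 6 members passed without Fabp4-Ebf2 replicate 2 and 4 passed without WT replicate 2. Genes called higher were 4.39% and 2.24% of those tested in these fits, in that order. Without Fabp4-Ebf2 replicate 1, 3 or 4, or without WT replicate 1, 3 or 4, edgeR called 0 members, while 7 were higher at an unadjusted p under 0.05 in each of these 6 fits, as were 7.79 to 9.62% of all tested genes. The number of genes called higher over the whole table also fell in these fits, to between 88 and 251, against 420 with all libraries.

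Upstream sequences are shown for 6 members and for the paralog Oas1c, which is no member, so that genes with different log2 fold changes can be read side by side. They are RefSeq promoter windows of build GRCm38.p6, 250 bases before to 50 bases after the start, all on chromosome 5, while the authors counted reads on mm9. The 6 members, of 8, are those with a window in the RefSeq table. Capitals mark 2 copies of GAAA with 2 bases between them, on either strand, the core of the interferon-stimulated response element. The windows are Oas1a at chr5:120907476-120907775 (minus strand), Oas1g at chr5:120887564-120887863 (minus strand), Oas1h at chr5:120861172-120861471 (plus strand), Oas3 at chr5:120777610-120777909 (minus strand), Oas1c at chr5:120812465-120812764 (minus strand), Oasl1 at chr5:114922990-114923289 (plus strand) and Oasl2 at chr5:114896684-114896983 (plus strand).
Oas1a: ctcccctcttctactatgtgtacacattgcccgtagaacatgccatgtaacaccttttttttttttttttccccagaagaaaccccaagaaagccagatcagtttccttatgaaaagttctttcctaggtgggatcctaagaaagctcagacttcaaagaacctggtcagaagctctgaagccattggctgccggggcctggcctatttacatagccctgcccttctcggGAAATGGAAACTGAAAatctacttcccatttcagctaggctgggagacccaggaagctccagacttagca
Oas1g: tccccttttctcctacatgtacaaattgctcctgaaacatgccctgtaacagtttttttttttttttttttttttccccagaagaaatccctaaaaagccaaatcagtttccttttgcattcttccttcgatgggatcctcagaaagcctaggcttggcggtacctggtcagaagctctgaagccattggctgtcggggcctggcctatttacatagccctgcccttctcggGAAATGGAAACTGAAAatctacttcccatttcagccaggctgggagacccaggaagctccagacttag
Oas1h: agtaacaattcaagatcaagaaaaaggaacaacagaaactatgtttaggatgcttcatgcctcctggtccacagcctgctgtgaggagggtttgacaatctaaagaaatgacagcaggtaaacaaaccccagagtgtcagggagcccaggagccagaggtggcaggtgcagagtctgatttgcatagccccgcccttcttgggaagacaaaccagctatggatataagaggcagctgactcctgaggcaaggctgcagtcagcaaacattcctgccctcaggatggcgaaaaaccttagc
Oas3: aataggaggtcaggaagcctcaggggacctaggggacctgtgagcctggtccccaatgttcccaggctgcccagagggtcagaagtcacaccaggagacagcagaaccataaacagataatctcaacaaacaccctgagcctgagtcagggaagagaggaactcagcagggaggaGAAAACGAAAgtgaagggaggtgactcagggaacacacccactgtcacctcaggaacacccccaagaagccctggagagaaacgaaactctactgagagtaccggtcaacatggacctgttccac
Oas1c: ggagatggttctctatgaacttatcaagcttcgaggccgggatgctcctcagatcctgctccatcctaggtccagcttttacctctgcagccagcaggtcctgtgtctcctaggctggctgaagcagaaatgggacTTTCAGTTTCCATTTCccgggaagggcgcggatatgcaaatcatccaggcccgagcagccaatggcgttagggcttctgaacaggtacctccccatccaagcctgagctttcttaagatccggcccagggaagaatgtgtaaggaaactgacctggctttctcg
Oasl1: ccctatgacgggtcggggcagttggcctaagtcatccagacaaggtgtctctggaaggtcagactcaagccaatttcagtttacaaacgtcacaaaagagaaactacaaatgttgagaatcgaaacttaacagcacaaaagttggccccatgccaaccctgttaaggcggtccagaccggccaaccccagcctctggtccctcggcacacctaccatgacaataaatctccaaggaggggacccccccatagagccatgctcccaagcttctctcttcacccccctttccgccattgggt
Oasl2: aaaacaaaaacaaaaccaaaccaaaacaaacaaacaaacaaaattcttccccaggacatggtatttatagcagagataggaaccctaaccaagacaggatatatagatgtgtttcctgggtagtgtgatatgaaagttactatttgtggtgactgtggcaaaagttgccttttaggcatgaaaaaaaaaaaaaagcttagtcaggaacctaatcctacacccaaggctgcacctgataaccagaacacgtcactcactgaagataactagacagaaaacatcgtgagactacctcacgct

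Oas1a and Oas1g shared the 16 bases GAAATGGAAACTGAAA just before the start, which hold 2 overlapping matches of the element, and their windows were 85.3% identical. Oas3 had 1 match, 75 bases before its start. Oas1c carried the same 16 bases on the other strand, and the CPM of this paralog overlapped between genotypes, with a log2 fold change of -0.11. By the coordinates, these bases also lie just before the start of the member Oas1b, on the strand of Oas1b. Oas1b has no window of its own here and is not among the 6 members counted below. Of the 6 member windows 3 held the element, against 3.44% of 32851 promoters. Oasl1, Oasl2 and Oas1h held no match in these windows, and all of these were called higher. The shorter AANNGAAA, which overlaps the element, was in 5 of 6 windows and in 23.9% of all promoters, and the EBF palindrome, TCCC and GGGA with 2 bases between them, in 0 of 6 and 0.904%. A match is a description of the letters in this window, and a window without one says nothing of binding elsewhere.

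Oas1a, an active synthetase, had 48.2, 34.6, 42.4 and 59.5 CPM in Fabp4-Ebf2 fat, against 18.6, 31.8, 14.6 and 20.5 CPM in WT fat. Every Fabp4-Ebf2 library was above every WT library, with WT replicate 2 close to Fabp4-Ebf2 replicate 2. The means were 46.2 ± 10.5 and 21.4 ± 7.39 CPM (SD, n = 4 each), with 1.11 as log2 fold change (SE 0.24; edgeR, adjusted p = 0.0409). Exact permutation of the libraries (two-sided, log2 CPM) returned p = 0.0286, which is the lowest value for 4 against 4 libraries. Left-out libraries that ended this call gave an adjusted p of 0.0859 to 0.117.

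Oas1g, the other active enzyme of the cluster, had 14.6, 9.81, 13.5 and 22.9 CPM in Fabp4-Ebf2 fat, against 4.52, 8.33, 3.31 and 4.46 CPM in WT fat. The groups did not overlap, and Fabp4-Ebf2 replicate 2 and WT replicate 2 were again nearest to each other. Its mean was 15.2 ± 5.54 CPM against 5.15 ± 2.19 CPM in WT, and the log2 fold change was 1.55 (SE 0.33; edgeR, adjusted p = 0.0344). Oas1a and Oas1g have much sequence in common: 57.6% of the 50-base windows of the Oas1a transcript also occur in Oas1g. How reads that match both were placed is not stated in the labels or headers, and the split between these genes is uncertain.

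Oas1h, a further paralog of the cluster, was the lowest member, with 26, 12, 10 and 16 reads in Fabp4-Ebf2 libraries and 3, 7, 4 and 3 reads in WT libraries. These were 1.23, 0.503, 0.578 and 0.654 CPM in Fabp4-Ebf2 fat, against 0.158, 0.271, 0.179 and 0.178 CPM in WT fat. The groups did not overlap, but 2 of the 4 WT libraries were at 3 reads. The log2 fold change was 1.85 (SE 0.40; edgeR, adjusted p = 0.0384), and this was the fitted value with the fewest reads behind it, 64 against 17 reads in WT. It passed in 1 of the 8 fits with a library left out, the one without Fabp4-Ebf2 replicate 2.

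Oas1b stood at the other end of the family. In mice a full-length Oas1b gives resistance to flaviviruses, and many laboratory strains carry a truncated form; RefSeq lists the gene as a transcribed pseudogene in the reference strain. It had 33.2, 19.9, 28.5 and 34.6 CPM in Fabp4-Ebf2 fat, against 19.5, 27.2, 17.1 and 25.1 CPM in WT fat. The groups overlapped, with Fabp4-Ebf2 replicate 2 below WT replicates 2 and 4. The means were 29.1 ± 6.62 and 22.2 ± 4.70 CPM, and the log2 fold change was 0.39 (SE 0.20; edgeR, adjusted p = 0.353), which did not pass. Which allele these mixed-background mice carry was not analysed here.

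The Oas1 paralogs outside the family list were not called. Oas1c starts head to head with Oas1b, with 94 bases between the starts at 120812540 and 120812635 in GRCm38.p6. The Oas1c window printed above is placed on another Oas1c start, and the Oas1b start lies inside it. Oas1c had 11.3 ± 1.26 CPM in Fabp4-Ebf2 fat and 12.1 ± 3.16 CPM in WT fat, overlapping groups and -0.11 as its log2 fold change (SE 0.18; edgeR, adjusted p = 0.781). Oas1d, Oas1e and Oas1f had 2, 15 and 10 reads over the Fabp4-Ebf2 libraries and 2, 2 and 4 over the WT libraries, too few to test.

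Oas2, an interferon-induced synthetase with a tandem repeat of the OAS unit, had 117, 88.3, 93.6 and 124 CPM in Fabp4-Ebf2 fat, against 66.2, 68.2, 36.1 and 63.6 CPM in WT fat. Every Fabp4-Ebf2 library was above every WT library, and WT replicate 3 was well under the other WT libraries. The means were 106 ± 17.5 and 58.5 ± 15.1 CPM, and the log2 fold change of 0.85 (SE 0.20) just missed the threshold (edgeR, adjusted p = 0.0518). Without Fabp4-Ebf2 replicate 2 it passed (adjusted p = 0.0400), as it did with DESeq2.

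Oas3, the largest family protein, which is built of several OAS units and responds best to long double-stranded RNA, had 52.0, 41.1, 38.8 and 54.8 CPM in Fabp4-Ebf2 fat, against 24.6, 33.5, 15.2 and 31.0 CPM in WT fat. The groups did not overlap, and the lowest library was again WT replicate 3. Its log2 fold change was 0.84 (SE 0.23; edgeR, adjusted p = 0.0837), which did not pass, with means of 46.7 ± 7.89 and 26.1 ± 8.17 CPM. Oas2 and Oas3, which lie next to each other, kept nearly the same ratio in both genotypes: the log2 ratio of Oas2 to Oas3 differed by -0.003.

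Oasl1 and Oasl2 encode OAS-like proteins with ubiquitin-like repeats. Oasl1, which lacks synthetase activity and in mice limits translation of Irf7, had 57.0, 22.01, 54.2 and 82.0 CPM in Fabp4-Ebf2 fat, against 12.50, 22.3, 8.40 and 17.4 CPM in WT fat. The spread within Fabp4-Ebf2 fat was wide, and its replicate 2 lay just below WT replicate 2, so the groups overlapped. The means were 53.8 ± 24.6 and 15.1 ± 6.01 CPM, and the log2 fold change was 1.83 (SE 0.40; edgeR, adjusted p = 0.0408). The exact permutation test gave p = 0.0571, and limma-voom did not call it (adjusted p = 0.0724).

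Oasl2, which in mice keeps synthetase activity, had 149, 79.9, 127 and 161 CPM in Fabp4-Ebf2 fat, against 58.1, 71.9, 36.2 and 58.1 CPM in WT fat. The groups did not overlap. Its means were 129 ± 35.8 and 56.1 ± 14.7 CPM, with a log2 fold change of 1.21 (SE 0.25) and the lowest adjusted p of the family (edgeR, 0.0316). Of the 8 members 7 had an edgeR FDR under 0.05 in the authors' deposited table, the exception being Oas1b at 0.452. The lowest was that of Oasl1, 1.58e-08. The share of all genes under 0.05 in that table was not counted here, so these 7 stand without a background.

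**Figure D1:**
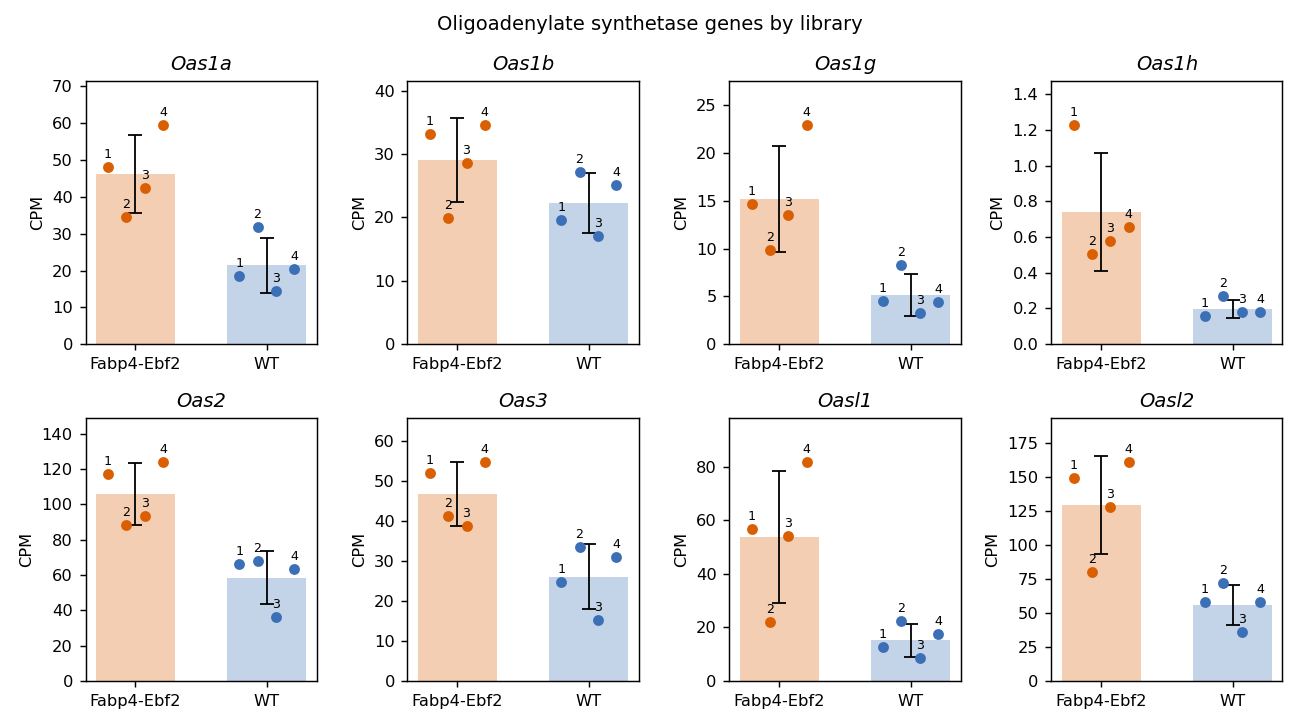
Levels of the 8 members in CPM (y axes, from 0) for Fabp4-Ebf2 and WT libraries, with bars at the mean, error bars of 1 SD (n = 4 each) and points numbered by replicate. Fabp4-Ebf2 replicate 2 is the lowest of its group in 7 members and WT replicate 2 the highest of its group in 8.

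The order of the libraries was much the same from member to member. Fabp4-Ebf2 replicate 4 had the highest level of its group in 7 members, and replicate 2 the lowest in 7. WT replicate 2 had the highest level of its group in all 8 members, and WT replicate 3 the lowest in 7. The RPKM of the family, CPM divided by transcript length in kilobases, summed to 168, 102, 144 and 196 in Fabp4-Ebf2 libraries, against 69.7, 94.3, 46.9 and 76.7 in WT libraries. The groups did not overlap in this sum, and its lowest Fabp4-Ebf2 library and its highest WT library were close. Fabp4-Ebf2 replicate 2 also had the lowest Ebf2 of its group.

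On the RPKM scale, which allows genes to be compared, Oasl2 was the most abundant member at 41.4 ± 11.5 in Fabp4-Ebf2 fat and 17.96 ± 4.72 in WT fat. Oas2 followed at 27.4 ± 4.53 RPKM in Fabp4-Ebf2 fat and 15.1 ± 3.89 RPKM in WT fat. In Fabp4-Ebf2 fat Oasl1 (25.3 ± 11.6 RPKM) and Oas1a (24.5 ± 5.57 RPKM) came next, ahead of Oas1b (15.8 ± 3.60 RPKM). In WT fat Oas1b (12.1 ± 2.56 RPKM) and Oas1a (11.3 ± 3.92 RPKM) stood ahead of Oasl1 (7.12 ± 2.83 RPKM). In Fabp4-Ebf2 fat the means of Oas2, Oasl1 and Oas1a, and those of Oas3 and Oas1g, differed from their neighbour by less than the larger SD. In WT fat this held for Oasl2 and Oas2, Oas2 and Oas1b, Oas1b and Oas1a, and Oasl1 and Oas3. Oas3 (9.89 ± 1.67 RPKM in Fabp4-Ebf2 and 5.52 ± 1.73 RPKM in WT), Oas1g (7.70 ± 2.80 and 2.61 ± 1.11 RPKM) and Oas1h (0.435 ± 0.194 and 0.115 ± 0.0298 RPKM) closed the order in both genotypes.

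Among the members' shares of the summed RPKM, that of Oas1b differed most in percentage points. It held 9.59 to 10.8% of the summed RPKM in Fabp4-Ebf2 libraries and 15.3 to 19.9% in WT libraries. Oasl1 held 10.2 to 19.7% in Fabp4-Ebf2 libraries and 8.42 to 11.1% in WT libraries. Over the 28 pairs of members, the log2 ratio within a library did not overlap between genotypes in 9, and 6 of these 9 involved Oas1b. The difference was 1.40 for Oasl1 over Oas1b, 0.82 for Oasl2 over Oas1b and 0.77 for Oas1a over Oas1b. The two-sided exact permutation test gave p = 0.0286 for each of the 9, the smallest possible, and 0.0889 after Benjamini-Hochberg adjustment over the pairs, so none passed.

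**Figure D2:**
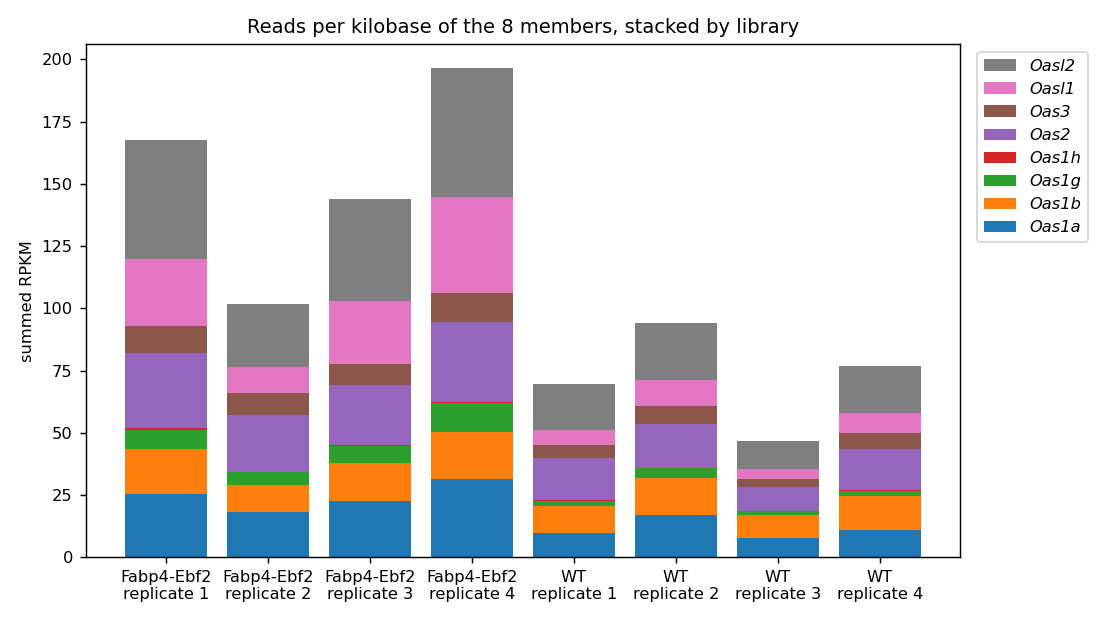
Summed RPKM of the 8 members (y axis, from 0) in each Fabp4-Ebf2 and WT library (x axis), stacked by gene. The Fabp4-Ebf2 libraries reach 102 to 196 and the WT libraries 46.9 to 94.3.

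Among 17 tested genes around the family edgeR called 1 higher and 0 lower, against 2.80% and 0.620% of all tested genes. All members lie on mouse chromosome 5 in 2 groups, one of Oas2, Oas3 and the Oas1 cluster and one of Oasl1 and Oasl2. Of the 5 genes on either side of each group, 17 of 20 were tested, and their log2 fold changes ran from -0.49 to 0.74 with a median of -0.13. One of them, Acads, a mitochondrial enzyme of short-chain fatty acid oxidation, rose near the Oasl pair (log2 fold change 0.74, SE 0.17; edgeR, adjusted p = 0.0482). Around Oas2, Oas3 and the Oas1 cluster the range was -0.37 to 0.30, with a lowest adjusted p of 0.270 (edgeR).

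**Figure D3:**
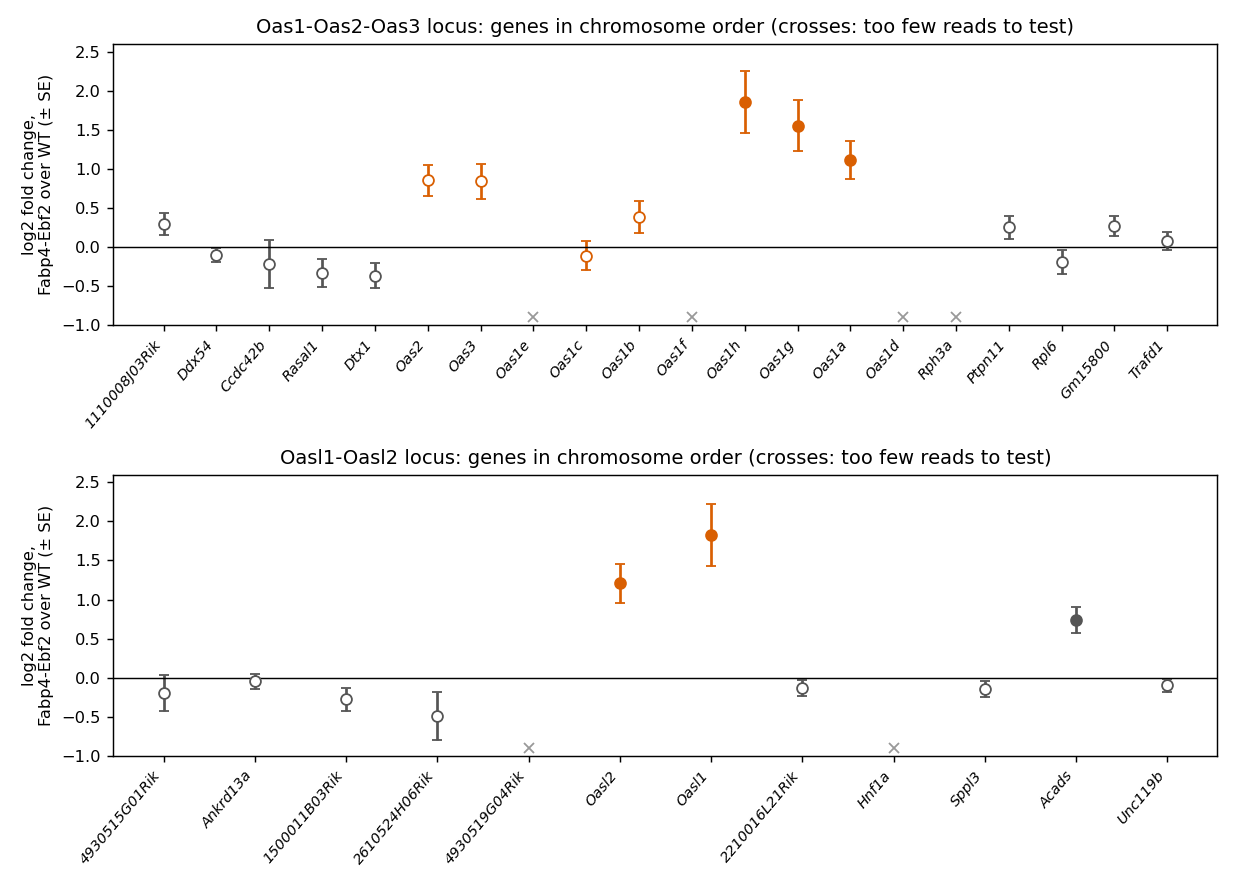
Log2 fold change, Fabp4-Ebf2 over WT, with its SE (y axis) of the Oas genes (orange) and the 5 genes on either side (grey) in chromosome order (x axis). Filled points passed edgeR's test at an adjusted p under 0.05, open points did not, and crosses mark genes with too few reads to test.

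Among genes that act on oligoadenylates or their effects, Abce1, and Pde12 and Akap7, phosphodiesterases that degrade oligoadenylates, had log2 fold changes of 0.08, 0.15 and 0.32. None of these passed edgeR's test (adjusted p = 0.641 for Abce1, 0.450 for Pde12 and 0.478 for Akap7).

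Among 14 sensors and effectors of foreign nucleic acid, 2 rose and 0 fell by edgeR, against 2.80% and 0.620% of all tested genes. The median over the list was 0.37 in log2 fold change. Ifih1, which encodes the double-stranded RNA sensor MDA5, had 85.9 ± 20.7 CPM in Fabp4-Ebf2 fat and 49.3 ± 4.86 CPM in WT fat (log2 fold change 0.80, SE 0.17; edgeR, adjusted p = 0.0349). Ifit1, which binds RNA lacking a mature cap, had 154 ± 89.9 CPM in Fabp4-Ebf2 fat and 31.0 ± 13.6 CPM in WT fat (log2 fold change 2.32, SE 0.52; edgeR, adjusted p = 0.0445). Higher levels at an unadjusted p under 0.05 were found for 9 of the 14, against 10.2% of all tested genes. DESeq2 called 5 higher and limma-voom 1, against 5.13% and 2.48% of the genes each tested. Both calls passed in 1 of the 8 fits with a library left out, that without Fabp4-Ebf2 replicate 2.

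The subunits of the type I interferon receptor, Ifnar1 and Ifnar2, missed the threshold, with 0.02 for Ifnar1 and 0.14 for Ifnar2 in log2 fold change (edgeR, adjusted p = 0.889 and 0.398). Stat2, a transcription factor activated by this receptor, had 157 ± 24.8 CPM in Fabp4-Ebf2 fat and 122 ± 12.5 CPM in WT fat, with overlapping groups. Stat2 did not pass (log2 fold change 0.36, SE 0.125; edgeR, adjusted p = 0.165), and its DNA-binding partner Irf9 did not pass either (log2 fold change 0.14, SE 0.11; adjusted p = 0.543).

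Irf7, the interferon regulatory factor that drives type I interferon genes, rose. It had 590, 257, 551 and 681 CPM in Fabp4-Ebf2 fat, against 149, 188, 83.1 and 142 CPM in WT fat, and the groups did not overlap. Its log2 fold change was 1.89 (SE 0.32; edgeR, adjusted p = 0.0175), and it failed without Fabp4-Ebf2 replicate 1, WT replicate 3 or WT replicate 4, at 0.0526 to 0.0664. It was 1 of 6 regulatory factors to pass, all others being without a call in either direction by edgeR, DESeq2 or limma-voom. Of 5 feedback genes 1 rose and 0 fell. For both lists the shares over all tested genes were 2.80% higher and 0.620% lower by edgeR. The feedback gene that rose was Usp18, which shuts down the type I receptor. It had 81.7 ± 23.7 CPM in Fabp4-Ebf2 fat and 35.8 ± 10.4 CPM in WT fat (log2 fold change 1.19, SE 0.25, edgeR, adjusted p = 0.0362). Usp18 passed in 1 of the 8 fits with a library left out, that without Fabp4-Ebf2 replicate 2. Isg15, the ubiquitin-like modifier that Usp18 removes, was just above the threshold (log2 fold change 1.53, SE 0.36; edgeR, adjusted p = 0.0510).

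Transcripts of the interferons themselves were near the limit of these libraries. Of the 19 ligand genes found, 13 had 0 reads in all 8 libraries, and only Ifng had enough reads to test (log2 fold change 0.21; edgeR, adjusted p = 0.744). Ifnb1, which encodes interferon beta, had 6, 0, 4 and 13 reads in Fabp4-Ebf2 libraries, against 0, 1, 0 and 0 in WT libraries. It was highest in replicate 4 and at 0 in replicate 2 of the Fabp4-Ebf2 group, the libraries with the highest and lowest family levels. In the authors' deposited table its FDR was 0.0388. A count of 0 allows up to 3 reads, so presence or absence in single libraries is not settled at this depth.

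**Figure D4:**
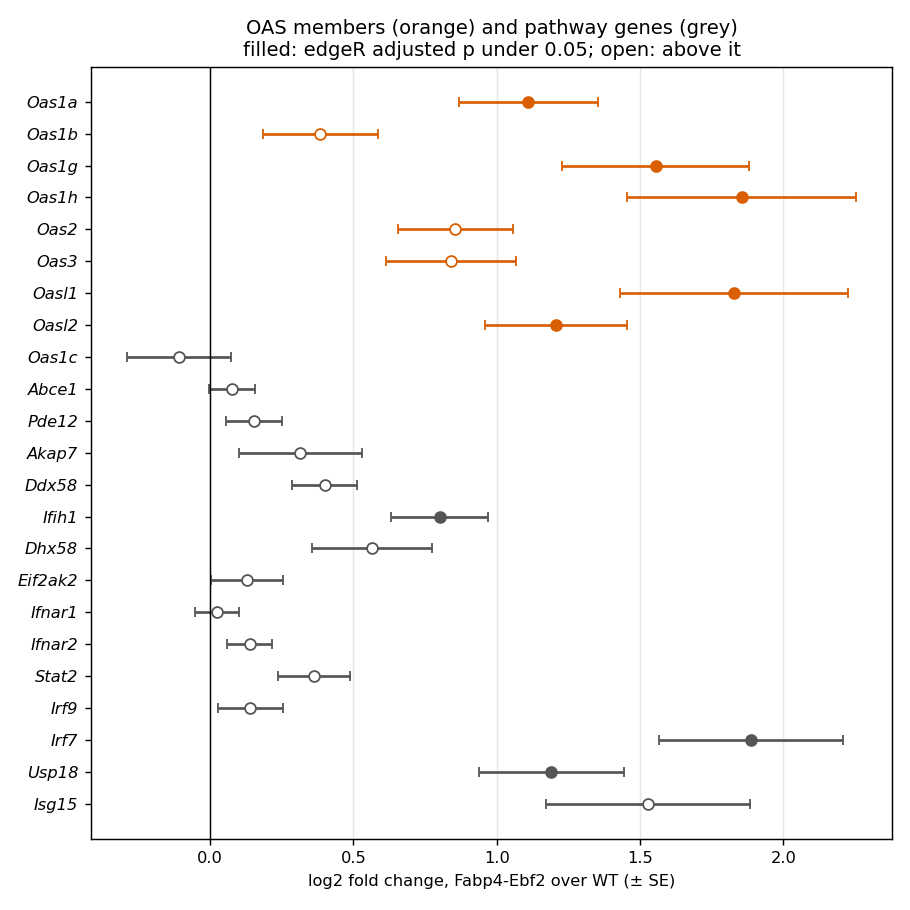
Log2 fold change, Fabp4-Ebf2 over WT, with its SE (x axis) for the members (orange) and named pathway genes (grey). Filled points passed edgeR's test at an adjusted p under 0.05, and open points did not.

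Likeness of profile was measured by the root-mean-square difference of centred log2 CPM over the 8 libraries. Within the family, Oas2 and Oas3 were each other's nearest gene of all those tested (0.125), as were Oas1a and Oasl2 (0.174). Oas1a was also the nearest gene to Oas1g (0.250). The part of reads that match both Oas1a and Oas1g in this likeness was not tested. Other members were less alike: Oas2, the member nearest to Oas1b, ranked 2431 among the tested genes. In likeness to the mean of the members, Oas1b ranked 108 and Oasl1 173. Outside the family, the genes most like the mean of the members were Rtp4 (0.175), Usp18 (0.190), Mnda (0.194), Mx1 (0.212) and Xaf1 (0.222), against a median of 0.705 over all tested genes. The following lists hold the 5 nearest genes that are not members. For Oasl2 they were Rtp4, Mnda, Usp18, Cmpk2 and Hist1h1c (0.176 to 0.224), and for Oas1a Bst2, Rtp4, Mx1, Mnda and Usp18 (0.216 to 0.239). For Oasl1 they were Irf7, Isg15, Ifit3, Mx2 and Ifit2 (0.199 to 0.296). For Oas2 they were Fam83g, Gm5431, Lgals3bp, Col27a1 and Mnda (0.149 to 0.214), and for Oas3 Dhx58, Mx1, Fam83g, Zbp1 and Dlk1 (0.223 to 0.239). For Oas1g they were Slamf9, Irf7, Bst2, Sh2d1b1 and Apol9b (0.259 to 0.332). For Oas1b, with its small difference, they were Dnmt3l, Irgm1, H2-M5, Slfn8 and Cd200r4 (0.113 to 0.134). For Oas1h, with few reads, they were Cdkn1a, Tmem82, Itpk1, Nfil3 and 1700019N12Rik (0.138 to 0.303).

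Markers of other cells were compared beside the family. Macrophage markers summed to 1463 to 2530 CPM in Fabp4-Ebf2 libraries and 1577 to 2907 CPM in WT libraries, and dendritic markers to 190 to 225 and 175 to 257 CPM. Lymphocyte markers summed to 864 to 1065 CPM in Fabp4-Ebf2 and 957 to 1652 CPM in WT, and endothelial markers to 546 to 631 and 585 to 736 CPM. Of these 10, 8, 10 and 5 genes, edgeR, DESeq2 and limma-voom called 0 in either direction, with 1 macrophage gene higher and 2 lymphocyte and 1 endothelial gene lower at an unadjusted p under 0.05. That macrophage gene was Emr1, at 136 ± 98.6 CPM in Fabp4-Ebf2 fat and 66.6 ± 25.1 CPM in WT fat, with overlapping groups. Its edgeR FDR in the authors' deposited table was 0.0192. By log2 fold change 5 macrophage markers were higher and 5 lower. Neutrophil markers summed to 5.81 to 32.4 CPM in Fabp4-Ebf2 and 13.0 to 344 CPM in WT, with 0 of 5 called by edgeR or limma-voom, 3 lower by DESeq2 and 5 lower at an unadjusted p under 0.05. Skeletal muscle markers summed to 20.9 to 325 CPM in Fabp4-Ebf2 and 332 to 1040 CPM in WT. Of these 10 genes 1 fell, Casq1, which encodes a calcium-binding protein of muscle (log2 fold change -2.24, SE 0.51, edgeR, adjusted p = 0.0474). At an unadjusted p under 0.05 all 10 were lower, and DESeq2 called 4 lower and limma-voom 0. Over all genes DESeq2 called 365 of 16265 lower. An unadjusted p under 0.05 was found for 2625 of 15002 genes, 1535 of them higher. Epithelial markers were low, at 4.56 to 21.6 CPM in Fabp4-Ebf2 and 4.46 to 11.1 CPM in WT, with 0 of 2 tested called by edgeR, DESeq2 or limma-voom or at an unadjusted p under 0.05. In each genotype replicate 2 had the highest macrophage, dendritic, lymphocyte and neutrophil sums, while it was the lowest Fabp4-Ebf2 library for most members and the highest WT library for all of them. Lyz2, at 812 to 1482 CPM in Fabp4-Ebf2 fat, was much of the macrophage sum. In Fabp4-Ebf2 fat Lyz2, Cd68, Csf1r, Cd14, Mrc1 and Mertk were highest in replicate 2 and Cd163 in replicate 1. Emr1, Itgam and Fcgr1 were highest in Fabp4-Ebf2 replicate 4, at 282, 148 and 43.8 CPM. The part of these cells in the family's levels was not tested.

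**Figure D5:**
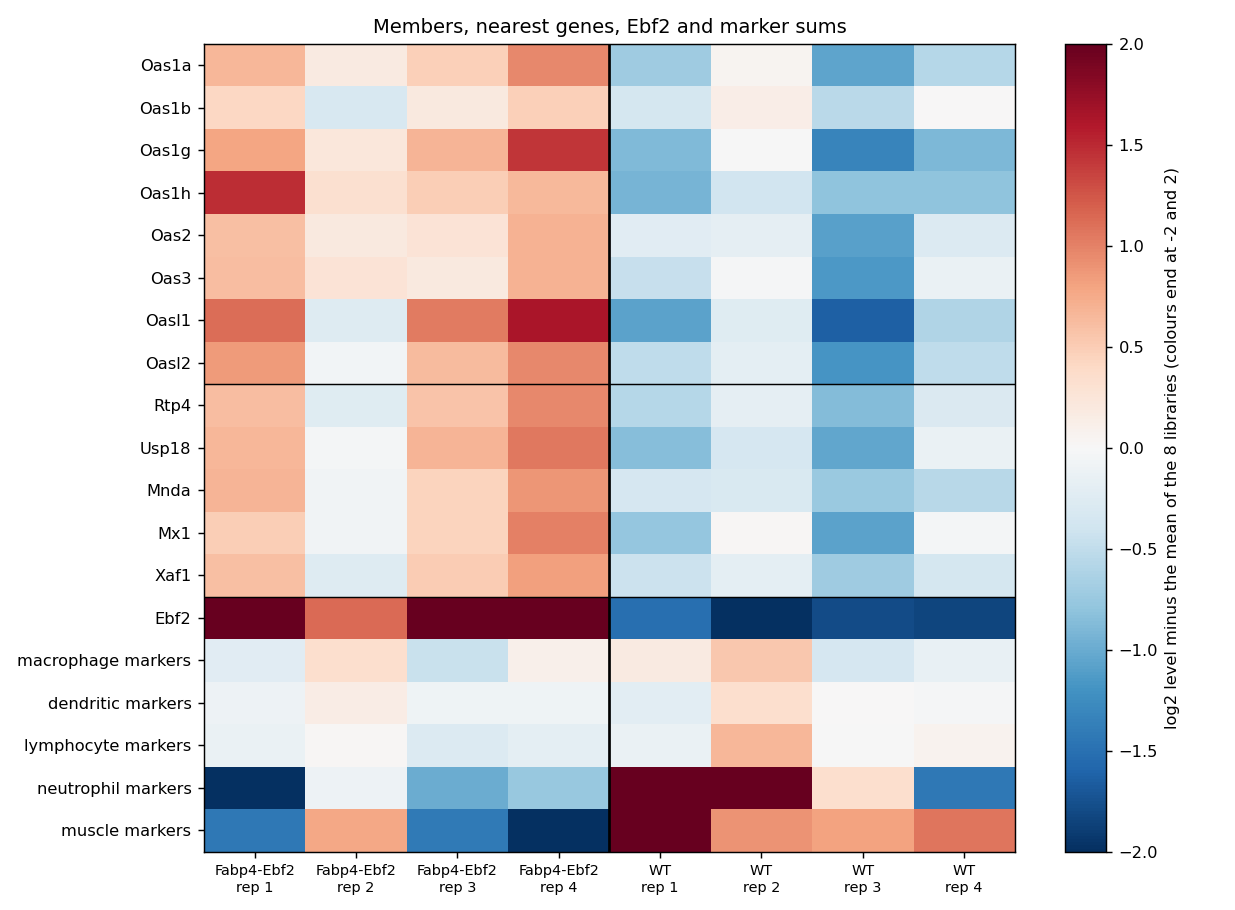
Log2 level minus the mean of the 8 libraries (colour, which ends at -2 and 2) for the members, the 5 genes nearest to their mean, Ebf2 and marker sums, with Fabp4-Ebf2 libraries left of WT libraries. All 8 members are above 0 in Fabp4-Ebf2 replicates 1, 3 and 4 and below 0 in WT replicates 1 and 3, and in WT replicate 4 all are below 0 but Oas1b, at 0.01. In both replicates numbered 2 some members are above and others below 0.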

How the data were processed

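RNA-seq of polyadenylated RNA was analysed in 4 Fabp4-Ebf2 and 4 WT libraries, grouped by their labels. The table deposited by the authors held raw read counts per RefSeq transcript, on mm9 per the submitters' processing notes. Which aligner and counter were used, and whether by strand, is not given in the sources used here. Per the file headers it also held the authors' edgeR log2 fold change and p-value with FDR. A further 8 per-sample columns were not used.

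Each gene was represented by the authors' best transcript, or else the one with most reads. The test was edgeR 4.0.16's quasi-likelihood test (R 4.3.3), after filterByExpr and TMM scaling, in a model of genotype alone, with p adjusted by Benjamini-Hochberg over 15002 genes and 0.05 as threshold. The procedure was tested on simulated data. The biological coefficient of variation was 18.7%, and depth was 16.9 to 24.7 M reads. Alternatives used DESeq2 1.42.0, limma-voom (limma 3.58.1), other factors, filters and transcripts, a replicate block, and leaving out each library. Named genes were the members, pathway genes past the threshold plus, among others, Ifnar1, Ifnar2, Stat2, Irf9 and Irf7, neighbouring genes, and the 5 non-members nearest in profile. A few single-gene results are not reported here. Other genes were named after their values were seen. Members and lists were chosen with earlier results of these data known. Promoters and gene order came from RefSeq GRCm38.p6, and shared sequence from GENCODE M21 transcripts. Figures used matplotlib 3.10.9.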

Additional observations from a re-analysis of the deposited data

Results flagged for a closer look

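Oas2 in WT replicate 3 was far from the rest of its group, at 36.1 CPM against 63.6 to 68.2 CPM in the other WT libraries. The gap was 0.859 of the range of the 4 libraries. This was the single such value in 20 sets of 4 libraries that were examined, and chance alone gives about 1 in 20. The same library was the lowest WT library for 7 of the 8 members.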

How the results depend on the processing

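Every member kept a positive log2 fold change in all 18 alternatives, and 0 members were called lower in any. The number of members called higher was 5, and was 4 to 7 with DESeq2, limma-voom, other scaling factors, other filters and other transcripts. Those alternatives called 2.26 to 5.13% of all tested genes higher. Oas1a missed the threshold without scaling factors (adjusted p = 0.0574) and with upper-quartile factors (0.0524). With each library left out in turn the count ran from 0 to 6, and that of all genes from 88 to 662 higher and from 22 to 256 lower, against 420 and 93. DESeq2 called 835 genes higher and 365 lower; the cause was not tested. With a replicate block 2 members passed, Oas2 (adjusted p = 0.0306) and Oas3 (0.0400), and the 5 others that had passed did not (0.0531 to 0.0744). Over all tested genes the block raised the number called higher to 475 (3.17%), from 420 (2.80%). Samples with the same number had correlated deviations of -0.133, 0.331, 0.142 and 0.057, against -0.333 to 0.178 for samples with different numbers. The 0.331 of the replicates numbered 2 was the highest of all. The main model did not take the numbers to pair the samples, and these values do not settle whether they do. Oas1h had 3 to 26 reads per library, the fewest of the members.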
